A study of Mus musculus with 12 samples.

Results

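The fibroblast growth factor (FGF) receptors and ligands examined here were 10 genes: the receptors Fgfr1, Fgfr2, Fgfr3, Fgfr4 and Fgfrl1, and the ligands Fgf1, Fgf2, Fgf7, Fgf9 and Fgf10. They were listed by name, with earlier results of these data known, and found by gene identifier in GENCODE mouse release 21. These 10 genes were part of 55536 gene identifiers counted in each library, and all 10 were among the 19213 genes with enough counts to be tested. The libraries came from the first 3 segments of the mouse epididymis, the coiled duct that receives sperm and fluid from the testis through the efferent ducts.

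All mice were wild type, and polyadenylated RNA was sequenced from 6 groups: segments 1, 2 and 3 of control epididymides that were not ligated, and the same 3 segments after efferent duct ligation, in which the ducts were closed with a suture just before the epididymis. Each group had 2 libraries, each library was a pool of 2 mice, and the sequencing batches 3017 and 3097 held 1 library of every group. Neither the time after ligation nor the age of the mice is stated in the sources used here. P-values measure the spread between pools, and the labels do not say whether pools of different groups shared mice. In tissue RNA, fewer cells of a type and less RNA per cell cannot be told apart.

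FGF ligands bind receptor tyrosine kinases at the cell surface together with heparan sulfate chains, and the bound receptors pass the signal through the adaptor Frs2 to the ERK kinases and through Plcg1 to calcium signalling. Genes of the Spry, Spred, Dusp and Etv families are induced by ERK signalling, and many of them dampen it. Fgf7 and Fgf10 are typically made by mesenchyme and bind the epithelial splice form of Fgfr2, Fgf9 favours the other receptors, and Fgf1 binds all of them. Gene counts do not separate the splice forms of a receptor.

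Libraries held 30.5 to 42.3 M counts, and levels are CPM, which are counts relative to library size, with edgeR's TMM factors. Where a pair of values is given for a group, batch 3017 comes first. Where libraries are said to lie apart, the share of all genes doing so was counted only for a pattern of Fgfr2. A floor of 3 counts in a library was worth 0.0700 to 0.103 CPM. The 2 control segment 2 libraries stood further apart than those of the other groups: chi-square per degree of freedom was 115.5 for them and 22.6 to 80.1 elsewhere, and Etv5 was at 380 and 68.7 CPM in them. Calls that rest on control segment 2 and changed without 1 of its libraries are given with the value that changed. The epithelial marker list summed to 2399 to 3105 CPM in every library, while adipocyte and mesothelial markers were near 0.

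By edgeR's quasi-likelihood test, with genes called at an adjusted p (Benjamini-Hochberg) under 0.05, ligation changed 4 of the 10 FGF genes in segment 1: Fgf10, Fgf1 and Fgfrl1 rose and Fgfr1 fell. Of all genes tested, 48.7% were called in that comparison (24.4% higher and 24.4% lower), so a count of 4 of 10 is near the background. The median log2 difference was 0.78 over the 10 genes and 0.03 over all genes. No FGF gene was called in segment 2, where 9.86% of all genes were, or in segment 3, where 1.72% were. At an unadjusted p under 0.05 the edgeR test held 6, 3 and 1 of the 10 genes in segments 1, 2 and 3 (10647, 5341 and 3061 of all genes), and DESeq2 called 5, 1 and 0.

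**Figure D1:**
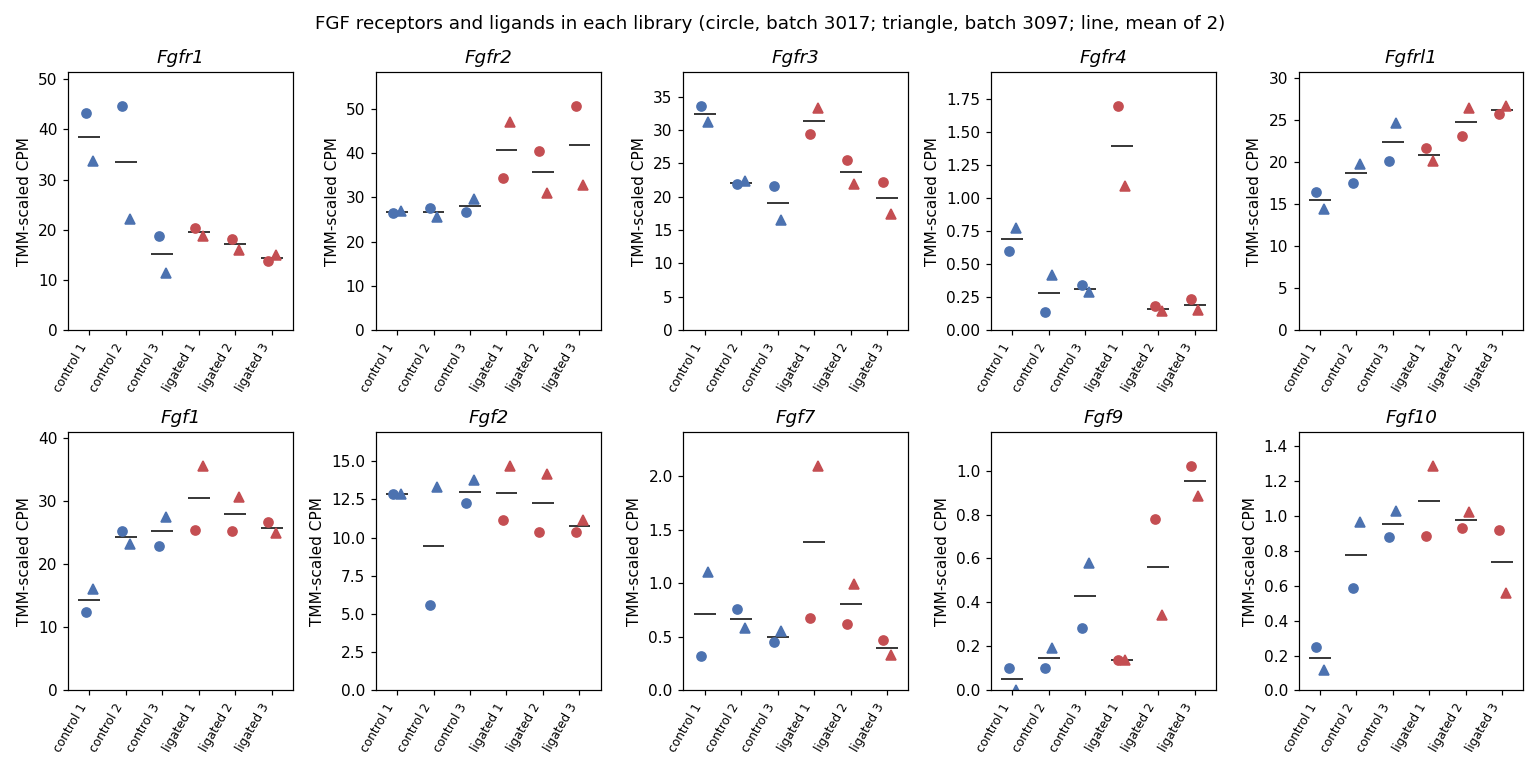
TMM-scaled CPM (vertical axes, starting at 0) of the 10 FGF genes in the 12 libraries by group; blue is control, red is ligated, circles are batch 3017, triangles batch 3097 and lines the means of 2 libraries. Fgf1 and Fgf10 were lowest in control segment 1, and Fgfr4 was highest in ligated segment 1 at 1.70 and 1.09 CPM.

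Upstream sequence is shown for Fgf10 and Fgfrl1, which rose together in ligated segment 1 and whose windows hold no annotated exon. Each is the 250 bases before the RefSeq start on GRCm38.p6, read 5′ to 3′ on the gene's strand. The Fgf10 window is chr13:118714449-118714698 on the plus strand, and the Fgfrl1 window is chr5:108693979-108694228 on the plus strand. Both windows lie inside the GENCODE gene span used here, which starts further upstream, at 118669791 for Fgf10 and 108692382 for Fgfrl1. Capitals mark the ETS core CCGGAA and the CCAAT box, which reads ATTGG on the other strand.
Fgf10: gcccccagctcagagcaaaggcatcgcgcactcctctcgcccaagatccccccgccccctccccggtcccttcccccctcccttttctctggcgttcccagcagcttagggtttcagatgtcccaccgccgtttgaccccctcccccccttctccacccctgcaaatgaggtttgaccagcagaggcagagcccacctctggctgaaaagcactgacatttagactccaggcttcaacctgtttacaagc
Fgfrl1: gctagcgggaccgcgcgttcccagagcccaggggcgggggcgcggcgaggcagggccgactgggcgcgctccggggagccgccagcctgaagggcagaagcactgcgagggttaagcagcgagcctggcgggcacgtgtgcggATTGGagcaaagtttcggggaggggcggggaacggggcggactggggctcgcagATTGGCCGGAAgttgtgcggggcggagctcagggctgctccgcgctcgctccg
The Fgfrl1 window had a GC content of 73.6% and the Fgf10 window 61.2%, against a median of 52.4% over 32851 such windows. In Fgfrl1, CCGGAA began 48 bases upstream of the start and ATTGG began 107 and 53 bases upstream, the second directly beside the ETS core. Over all windows, CCGGAA was found on either strand in 12% and CCAAT in 33.8%. Neither window held the AP-1 motif TGACTCA (4.46% of windows), the CRE motif TGACGTCA (1.55%), TATAAA (12.4%) or the androgen half-site AGAACA (16.1%), searched on both strands. The GC box GGGCGG, found in 32.7% of windows and not in capitals here, occurred in both. A match is a description of letters, not of binding.

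Fgfr1 (chr8:25513654-25575718, plus strand), a receptor that in many organs is strongest in mesenchyme, was the only one of the 10 genes called lower after ligation. It stood at 43.2 and 33.8 CPM in control segment 1, 44.8 and 22.2 in control segment 2 and 18.7 and 11.5 in control segment 3. In ligated tissue it was at 20.3 and 18.8, 18.2 and 16.1, and 13.8 and 15.0 CPM in segments 1, 2 and 3. The control libraries of segments 1 and 2 thus lay above every ligated library, and control segment 3 overlapped the ligated libraries. In order of mean level, control segments 1 and 2 overlapped, ligated segment 1 lay below them and above ligated segment 2, and ligated segment 2, control segment 3 and ligated segment 3 overlapped in turn.

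In segment 1, Fgfr1 fell by 0.96 ± 0.25 (SE) on the log2 scale with ligation (38.5 ± 6.64 against 19.6 ± 1.03 CPM, SD, n = 2; edgeR adjusted p = 0.0134), with within-batch differences of -1.07 and -0.83. That call was lost without the control segment 1 library of batch 3017 (adjusted p = 0.058), without that of batch 3097 (0.067) and without the ligated segment 1 library of batch 3017 (0.11). In segment 2 the difference was -0.91 ± 0.25 and missed the threshold (edgeR adjusted p = 0.059). DESeq2 called that difference (adjusted p = 0.0038), and so did edgeR without the control segment 2 library of batch 3097 (-1.25, adjusted p = 0.0037). An antisense gene, Gm16159, shares 164 bases of exon with Fgfr1, and how strand entered the counting is unknown here.

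Fgfr2 (chr7:130162451-133123350, minus strand), the receptor of Fgf7 and Fgf10 in its epithelial form, was at 26.5 and 26.9 CPM in control segment 1, 27.6 and 25.6 in segment 2 and 26.7 and 29.5 in segment 3. After ligation it was at 34.3 and 47.0, 40.5 and 30.9, and 50.7 and 32.8 CPM. All 6 ligated libraries, at 30.9 CPM or more, lay above all 6 control libraries, at 29.5 or less, a pattern that 1.27% of all genes tested showed. This grouping across segments was made after the values were seen and carries no test. Within a segment the log2 differences were 0.61 ± 0.23 in segment 1 (edgeR adjusted p = 0.058), 0.42 in segment 2 (0.28) and 0.56 ± 0.23 in segment 3 (0.29), and none passed. In segment 1 the difference passed in 6 alternatives, among them DESeq2 (adjusted p = 0.026) and scaling by library totals (0.020). The gene model of Fgfr2 extends to Ctbp2 on the same strand and shares 314 bases of exon with it. Ctbp2 itself was at 29.4 to 40.7 CPM, highest in control segment 1.

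Levels of different genes were set side by side per kilobase of merged annotated exon, 9875 bases for Fgfr1 and 10328 for Fgfr2. Which transcripts were expressed is unknown here, so levels of different genes compare only roughly. On this scale the ratio of Fgfr1 to Fgfr2 was 1.71 and 1.32 in control segment 1 and 1.70 and 0.906 in control segment 2. It was 0.735 and 0.405 in control segment 3 and 0.283 to 0.618 in the 6 ligated libraries. By merged exon length, Fgfr1 exceeded Fgfr2 in both libraries of control segment 1 and in 1 library of control segment 2. It was below Fgfr2 in the other 9 libraries. Where the ratio crosses 1 depends on the lengths used.

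**Figure D2:**
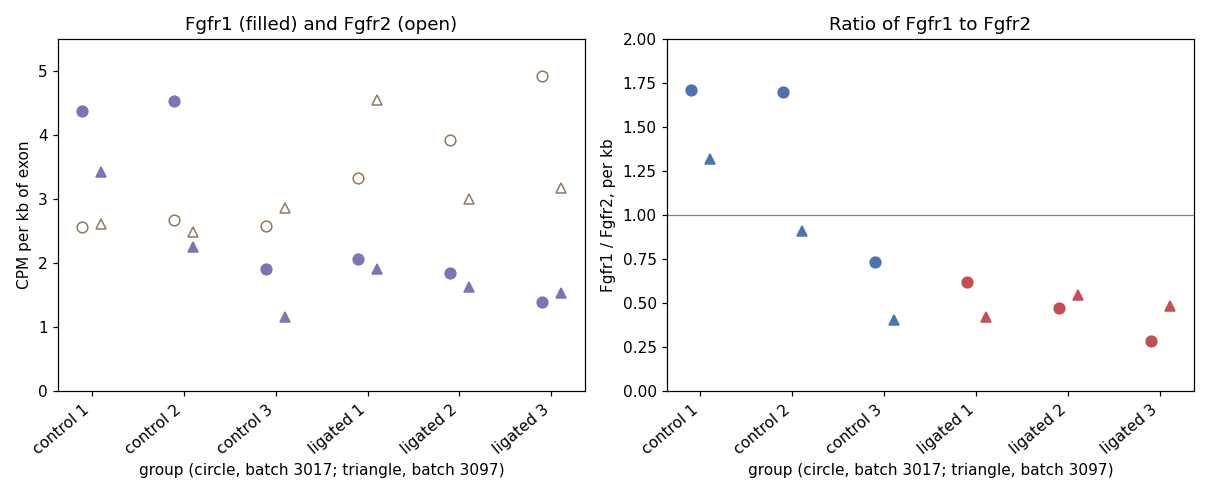
Left, level of Fgfr1 (filled) and Fgfr2 (open) in CPM per kilobase of exon by group; right, their ratio in each library, with a line at 1 (circles, batch 3017; triangles, batch 3097). The ratio was above 1 in 3 control libraries and at most 0.618 in the ligated ones.

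Fgfr3 (chr5:33721674-33737068, plus strand), a receptor with epithelial and mesenchymal splice forms, was highest in segment 1 in both conditions. It was at 33.6 and 31.1 CPM in control segment 1, 21.9 and 22.3 in control segment 2 and 21.6 and 16.5 in control segment 3. In ligated tissue it was at 29.4 and 33.3, 25.4 and 22.0, and 22.3 and 17.5 CPM. All 4 segment 1 libraries, control and ligated, lay above the other 8. How many of all genes do so was not counted. The ligation difference in segment 1 was not called (edgeR adjusted p = 0.82).

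Between control segments, Fgfr3 was higher in segment 1 than in segment 2 by 0.55 ± 0.14 on the log2 scale (edgeR adjusted p = 0.010) and than in segment 3 by 0.77 ± 0.14 (adjusted p = 0.0013). The first call was lost without either control segment 1 library (adjusted p = 0.051 and 0.060), while the second held in every alternative run. In ligated tissue Fgfr3 was higher in segment 1 than in segment 3 by 0.67 ± 0.14 (edgeR adjusted p = 0.025). That call was lost without the ligated segment 1 library of batch 3097 (0.21) and without either ligated segment 3 library (0.12 and 0.13). An unconfirmed antisense transcript, G630022F23Rik, shares 998 bases of exon with Fgfr3.

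Fgfr4 (chr13:55152640-55168759, plus strand), the receptor that works with the coreceptor Klb in liver, was scarce. Control libraries held 24 and 26 counts in segment 1 (0.601 and 0.775 CPM) and 0.138 to 0.419 CPM in segments 2 and 3. Ligated segment 1 held 73 and 39 counts (1.70 and 1.09 CPM), above every other library, and ligated segments 2 and 3 held 0.146 to 0.236 CPM. Ligated segment 1 exceeded ligated segment 2 by 3.07 ± 0.53 on the log2 scale (edgeR adjusted p = 0.032) and ligated segment 3 by 2.83 ± 0.52 (0.018). Each call was lost whenever any 1 of its 4 libraries was left out (adjusted p = 0.12 to 0.28 and 0.091 to 0.14). The difference from control segment 1, 1.02 ± 0.45, was not called (edgeR adjusted p = 0.087).

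Over the 12 libraries, the genes whose log2 CPM followed Fgfr4 most closely were Ccdc153 (Pearson r = 0.90), Fkbp11 (0.87) and Foxj1 (0.86). Foxj1, a transcription factor of cells with motile cilia, was at 7.66 and 5.07 CPM in control segment 1 and 12.9 and 16.5 in ligated segment 1, and at 0.812 to 2.36 in the other 8 libraries. These coefficients describe 12 libraries that share groups and batches and carry no p. Of 8 ciliated cell markers, a list that holds Foxj1, 6 rose in segment 1 and none fell (75% called, against 48.7% of all genes). Their summed level was 104 to 105 CPM in control and 183 to 210 in ligated segment 1. In the other groups the list summed to 139 to 176 CPM in control segment 2, 146 to 170 in control segment 3, 153 to 165 in ligated segment 2 and 129 to 140 in ligated segment 3. The list as a whole was thus lowest in control segment 1, where Foxj1 and Fgfr4 were above segments 2 and 3. The part of these cells in the Fgfr4 values was not tested.

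**Figure D3:**
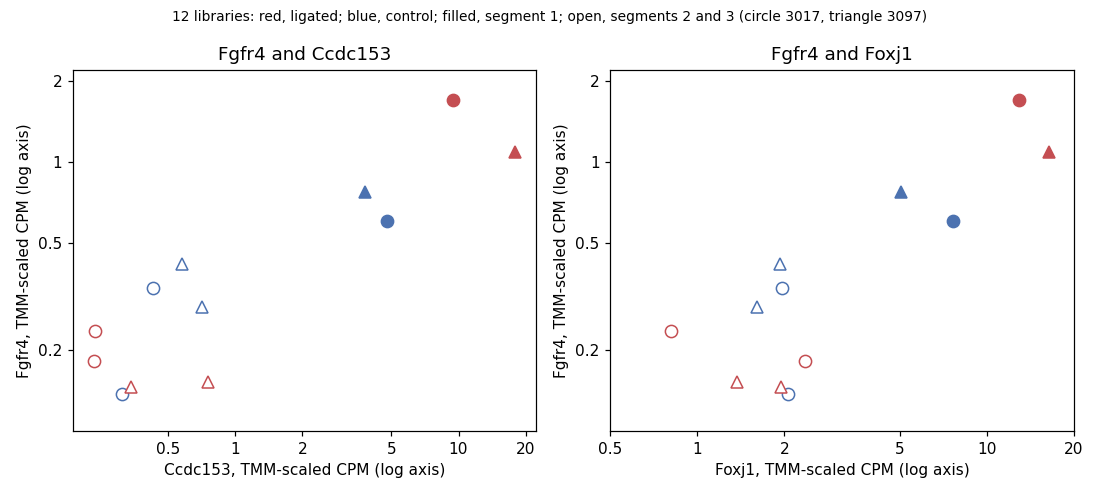
Fgfr4 against Ccdc153 (left) and Foxj1 (right), TMM-scaled CPM on log axes, 1 point per library (red, ligated; blue, control; filled, segment 1; open, segments 2 and 3). The 4 segment 1 libraries lie apart at upper right in both panels.

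Fgfrl1 (chr5:108692382-108706924, plus strand), a receptor that lacks the kinase domain, had the highest level per kilobase of merged exon of the 10 genes in each group, with means of 5.54 to 9.40 CPM per kilobase against at most 5.58 for any of the others. That ranking rests on merged exon lengths, 2782 bases for Fgfrl1, and the transcripts expressed are unknown here. Fgfrl1 was at 16.4 and 14.4 CPM in control segment 1, 17.5 and 19.7 in segment 2 and 20.1 and 24.6 in segment 3. Ligated libraries were at 21.6 and 20.1, 23.1 and 26.4, and 25.6 and 26.7 CPM. In both conditions the mean level was lowest in segment 1 and highest in segment 3, and in segments 1, 2 and 3 both ligated libraries lay above both control libraries of the same segment. The share of all genes with that arrangement was not counted. The ligation difference in segment 3 was not called (edgeR adjusted p = 0.39).

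In segment 1 Fgfrl1 rose by 0.43 ± 0.12 on the log2 scale with ligation (edgeR adjusted p = 0.016), by 0.38 and 0.47 within batches. The call was lost without the control segment 1 library of batch 3097 or the ligated segment 1 library of batch 3017 (adjusted p = 0.15 each). In control tissue it was lower in segment 1 than in segment 3 by a log2 difference of -0.53 ± 0.12 (edgeR adjusted p = 0.0059), a call lost without the batch 3097 library of either group (0.067 each). In segment 2 the ligation difference was 0.41 ± 0.12 and was not called (edgeR adjusted p = 0.066), though it passed with scaling by library totals (0.023) and without the control segment 2 library of batch 3097 (0.049).

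Fgf1 (chr18:38838673-38929472, minus strand), an intracellular ligand released without a signal peptide that binds every FGF receptor, was the most abundant ligand of the 5 per kilobase. It was at 12.5 and 16.1 CPM in control segment 1 and at 22.9 to 27.5 in the control libraries of segments 2 and 3. Ligated libraries were at 25.5 and 35.5, 25.3 and 30.7, and 26.7 and 24.9 CPM in segments 1, 2 and 3. Control segment 1 lay below all 10 other libraries. The share of all genes with this pattern was not counted. Among all genes, 22.1% and 26.2% were called lower in control segment 1 than in control segments 2 and 3. With ligation in segment 1, 24.4% were called higher.

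With ligation Fgf1 rose in segment 1 by 1.09 ± 0.15 on the log2 scale (14.3 ± 2.56 to 30.5 ± 7.14 CPM, SD, n = 2; edgeR adjusted p = 3.5e-04), by 1.00 and 1.12 within batches. It was lower in control segment 1 than in control segment 2 by a log2 difference of -0.78 ± 0.15 (adjusted p = 0.0030) and than in control segment 3 by -0.82 ± 0.15 (0.0016). These 3 calls held in every alternative run, and all 3 share the control segment 1 libraries. The ligation difference was larger in segment 1 than in segment 3 by 1.05 ± 0.21 (interaction contrast, edgeR adjusted p = 0.0054), which also held in every alternative. It was larger than in segment 2 by 0.90 ± 0.21 (adjusted p = 0.018). The latter call was lost without the batch block (0.054) and without the control segment 1 library of batch 3017 (0.085), the ligated segment 1 library of batch 3097 (0.066) or either ligated segment 2 library (0.073 and 0.058).

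Fgf10 (chr13:118669791-118792115, plus strand), a secreted ligand that acts on epithelium through Fgfr2, was also lowest in control segment 1, at much lower levels than Fgf1. Control segment 1 held 10 and 4 counts (0.25 and 0.12 CPM), control segment 2 held 17 and 30 and control segment 3 held 31 and 39. Ligated segments 1, 2 and 3 held 38 and 46, 36 and 42, and 35 and 22 counts. Both control segment 1 libraries lay below the other 10, which ranged from 0.556 to 1.29 CPM. As for Fgf1, the share of all genes with this pattern was not counted.

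In segment 1 Fgf10 rose by 2.49 ± 0.49 on the log2 scale with ligation (0.185 ± 0.0928 to 1.09 ± 0.284 CPM, SD, n = 2; edgeR adjusted p = 0.0024), and that call held in every alternative in which it was tested. Within batches the differences were 0.89 and 1.53, on CPM plus 0.5, which shrinks differences at levels this low. The size of the rise is thus uncertain. Fgf10 was lower in control segment 1 than in control segment 3 by a log2 difference of -2.31 ± 0.49 (adjusted p = 0.0035), a call that also held in every alternative in which it was tested. The difference from control segment 2, -2.01 ± 0.51 (adjusted p = 0.011), was lost without the control segment 1 or the control segment 2 library of batch 3097 (0.083 and 0.080). The ligation difference was larger in segment 1 than in segment 3 by 2.85 ± 0.64 (interaction contrast, edgeR adjusted p = 0.0090), which held in every alternative in which it was tested. It was larger than in segment 2 by 2.15 ± 0.65 (adjusted p = 0.046), and that call was lost in 11 of 14 alternatives, with adjusted p up to 0.16. The genes most like Fgf10 over the 12 libraries were Eif4ebp1 (r = 0.95), Lrig3 (0.94) and Kdelc2 (0.94). Gm16263, antisense to Fgf10, shares 123 bases of exon with it.

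**Figure D4:**
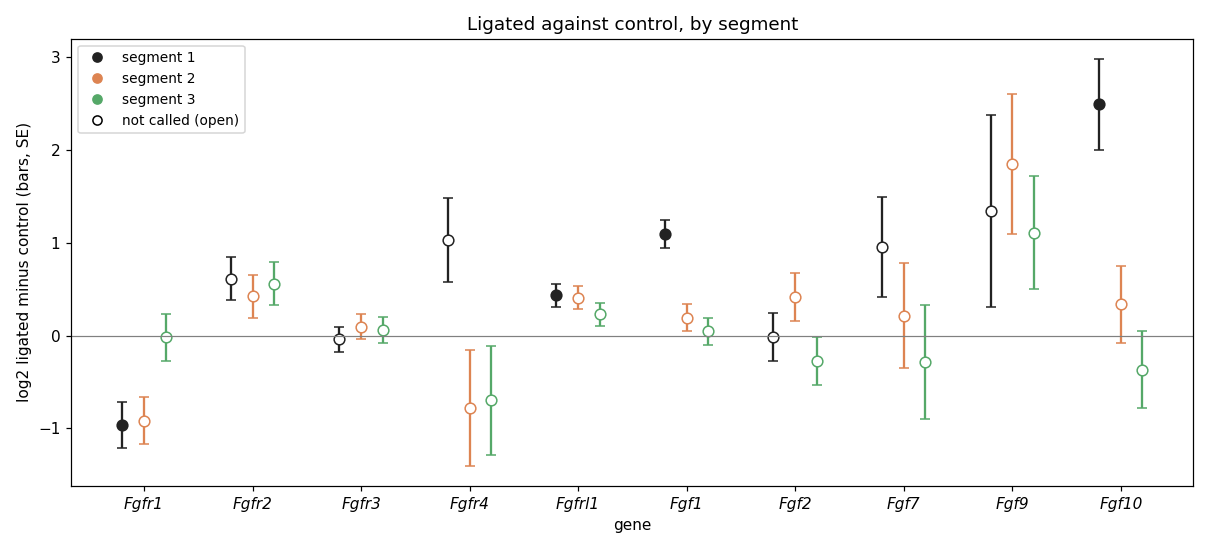
Log2 difference of ligated from control libraries (vertical axis; bars, SE) for the 10 FGF genes in segments 1, 2 and 3; filled points were called by edgeR at an adjusted p under 0.05 and open points were not. Fgf10 at 2.49, Fgf1 at 1.09, Fgfrl1 at 0.43 and Fgfr1 at -0.96 were called in segment 1, and no gene was called in segments 2 and 3.

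Stromal markers are given beside Fgf10 and Fgfr1, both known from stroma in many organs. With ligation in segment 1, 48.7% of all genes were called, 24.4% higher and 24.4% lower. Of 11 fibroblast markers, 9 rose and 1, Pdgfra, fell with ligation in segment 1. Without Pdgfra, their summed level was 128 to 163 CPM in control and 245 to 374 in ligated segment 1, and with it 655 to 674 and 271 to 413. Of 8 smooth muscle markers, 5 rose and 1 fell, and without Actg2 they summed to 278 to 348 CPM in control and 444 to 565 in ligated segment 1, and with it to 3149 to 3205 and 455 to 577. Of 9 endothelial markers, 1 rose and 6 fell, with sums of 116 to 121 CPM and 47.4 to 57.0. Markers of clear and narrow cells, the epithelial cells that acidify the duct, were lowest where Fgf1 and Fgf10 were: 6 of 7 rose in segment 1 and none fell. They summed to 232 to 328 CPM in control segment 1, 726 to 1021 in control segment 2, 1101 to 1202 in control segment 3 and 1031 to 1134 in ligated segment 1. Of 8 macrophage markers 3 rose and none fell in segment 1, which is 37.5% called, below the 48.7% of all genes. Their sums were 155 to 177 CPM in control and 225 to 256 in ligated segment 1. Of 3 tested Schwann cell markers 2 rose and none fell, and the list summed to 4.80 to 5.06 and 16.6 to 21.1 CPM. Sums of Schwann cell, ciliated cell and, without Actg2, smooth muscle markers were also lowest in control segment 1. With Actg2, the smooth muscle sum was highest there. Of 10 principal cell markers, 8 fell and none rose in segment 1, with sums of 84597 to 102578 and 44043 to 48794 CPM. No fibroblast marker was at 0 in both libraries of a group. The part of these cell types in the results was not tested.

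Fgf9 (chr14:58070547-58112720, plus strand), a secreted ligand of epithelial origin in many organs, was near the floor in segment 1. Control libraries held 4 and 0 counts in segment 1, 3 and 6 in segment 2 and 10 and 22 in segment 3. Ligated libraries held 6 and 5, 30 and 14, and 39 and 35 counts. In both conditions segment 1 and segment 3 did not overlap. The highest level, in ligated segment 3, was 1.02 CPM.

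In control tissue Fgf9 was lower in segment 1 than in segment 3 by a log2 difference of -2.97 ± 0.89 (edgeR adjusted p = 0.019), which rests on 4 counts in segment 1. That call was lost without the control segment 1 library of batch 3097 (0.097) or the control segment 3 library of batch 3097 (0.14). The same contrast in ligated tissue was -2.74 ± 0.70 and missed the threshold (edgeR adjusted p = 0.052), though DESeq2 called it (0.037). The ligation difference was not called in any segment. The genes most like Fgf9 were Rhbdl2, Adat1 and Gpam (r = 0.95 each), whose mean levels were also lowest in control segment 1 and highest in ligated segment 3.

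Fgf2 (chr3:37348346-37410108, plus strand), like Fgf1 a ligand without a signal peptide, was not called in any of the 12 comparisons. It was between 10.3 and 14.7 CPM in 11 libraries and at 5.58 in the control segment 2 library of batch 3017, whose partner was at 13.3. Nudt6 on the opposite strand and Gm43439 together share 895 bases of exon with Fgf2, and Nudt6 was itself at 6.14 to 8.64 CPM. Fgf7 (chr2:126034658-126091185, plus strand), the keratinocyte growth factor, was not called either. It held 13 to 75 counts a library, from 0.325 CPM in a control to 2.10 in a ligated segment 1 library, and the 2 libraries of segment 1 differed in each condition, at 0.325 and 1.10 and at 0.677 and 2.10 CPM. The genes most like it were Kitl (r = 0.86), Sod3 (0.83) and Txnip (0.83).

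Between control segments 1 and 2 there were 3 calls among the 10 genes (1 higher in segment 1, 2 lower), where 43.2% of all genes were called (21.1% higher, 22.1% lower). Between control segments 1 and 3 there were 6 calls (2 higher, 4 lower), where 51.2% were (25% higher, 26.2% lower). Fgfr1 was among them, 1.37 ± 0.25 higher in segment 1 (edgeR adjusted p = 0.0026, held in every alternative). These comparisons and those of ligation in segment 1 share the control segment 1 libraries. Between control segments 2 and 3 edgeR called none of the 10, where 1.79% of all genes were called, with 1 at an unadjusted p under 0.05 and 1 call by DESeq2. That gene was Fgfr1, 1.13 ± 0.25 higher in segment 2 (edgeR adjusted p = 0.065, DESeq2 adjusted p = 3.4e-04). Without the control segment 2 library of batch 3097 its edgeR adjusted p was 0.0026.

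After ligation, 1 of the 10 genes differed between segments 1 and 2 and 2 between segments 1 and 3, where 1.3% and 5.8% of all genes were called. Between ligated segments 2 and 3 edgeR called none of the 10 genes and 0% of all genes, with 0 of the 10 and 1344 of all genes at an unadjusted p under 0.05, and DESeq2 called 0 of the 10. The interaction contrasts called 2 of the 10 for segment 1 against segment 2 (18.5% of all genes) and 2 for segment 1 against segment 3 (30.7%). For segment 2 against segment 3 edgeR called none of the 10 and 0% of all genes, with 1 of the 10 at an unadjusted p under 0.05 and 0 called by DESeq2.

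Of the 17 FGF ligands outside the 10, only 5 had enough counts to be tested. The other 12 reached at most 8 counts in a library, and 4 of them had no count in any library. In segment 1, 3 of the 5 rose with ligation and none fell (60% called). Among all genes tested, 48.7% were called there and 24.4% were called higher. Fgf21, a circulating hormone-like ligand, rose from 0.197 to 2.12 CPM (log2 difference 3.45 ± 0.54, edgeR adjusted p = 6.6e-04), and Fgf11 rose from 0.642 to 2.27 CPM (1.86 ± 0.39, 0.0034). Fgf12 rose from 34.5 to 46.3 CPM (0.43 ± 0.10, 0.0055), a call lost without the control or the ligated segment 1 library of batch 3017 (0.059 and 0.072). Fgf11 and Fgf12 belong to the FGF-homologous factors, which stay inside the cell and bind sodium channels. None of the 5 was called in segments 2 or 3 by edgeR or DESeq2, with 0 and 3 at an unadjusted p under 0.05 in edgeR.

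Coreceptors and FGF-binding proteins rose more often than they fell in segment 1: of 18 tested, 10 rose and 2 fell (66.7% called, against 48.7% of all genes), with a median log2 difference of 0.93 against 0.03 over all genes. Flrt1, a membrane protein that binds FGF receptors, rose from 0.299 to 1.47 CPM (2.29 ± 0.56, edgeR adjusted p = 0.0079), a call lost without the control segment 1 library of batch 3017 (0.073). Gpc3, a glypican, rose from 5.17 to 17.7 CPM (1.73 ± 0.20, 1.3e-04), while Gpc6, another glypican, fell from 19.3 to 1.16 CPM (-4.06 ± 0.74, 0.0042). The count of those that rose was 6 without either control segment 1 library. In segment 2, 2 rose and 1 fell (16.7% called, against 9.86% of all genes).

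Of 12 tested enzymes that build or trim heparan sulfate, 4 rose and 1 fell in segment 1, with a median of 0.09. That is 41.7% called, below the 48.7% of all genes. Ndst2, an N-sulfotransferase, rose from 21.0 to 40.1 CPM (0.93 ± 0.13, edgeR adjusted p = 2.9e-04). Sulf1, an extracellular sulfatase that removes sulfate from the chains, rose from 2.55 to 8.33 CPM (1.71 ± 0.29, 0.0011). Hpse, the heparanase that cuts the chains, rose from 0.368 to 2.35 CPM (2.82 ± 0.71, 0.011), a call lost without the ligated segment 1 library of batch 3017 (0.064). In segment 2, Hs6st1 rose from 58.0 to 86.3 CPM and Hs3st1 fell from 14.2 to 5.66 CPM, the only calls among the 12 (16.7%, against 9.86% of all genes).

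The adaptors, kinases and other signalling proteins downstream of the receptors changed in both directions: of 21, 5 rose and 9 fell in segment 1, with a median of -0.17. That is 66.7% called against 48.7% of all genes, and the share that rose, 5 of 21, is near the 24.4% of all genes called higher. Plcg1 fell from 597 to 109 CPM (-2.45 ± 0.29, edgeR adjusted p = 5.0e-04), while Pik3r1, the regulatory subunit of PI3 kinase, rose from 52.6 to 95.9 (0.87 ± 0.10, 1.5e-04). The count of those that rose was 3 without the control segment 1 library of batch 3097 or either ligated segment 1 library. In segment 2, Frs2 rose from 50.9 to 69.3 CPM and Plcg1 fell from 311 to 103, and these 2 calls among 21 genes (9.52%) are near the 9.86% of all genes.

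Feedback genes and ERK targets moved most. Of 18 tested, 16 fell and 2, Il17rd and Myc, rose in segment 1 (100% called, against 48.7% of all genes), with a median of -3.02. Dusp4, a phosphatase of ERK, fell from 95.3 to 1.07 CPM (-6.57 ± 0.56, edgeR adjusted p = 2.0e-04), and the transcription factors Etv4 and Etv5 fell, with log2 differences of -9.87 and -8.97. These are also targets of other receptors that signal through ERK, and the list was drawn up with these results known. Without 1 of the segment 1 libraries in turn, 15 to 16 fell and 0 to 1 rose. In segment 2, 11 fell and none rose (61.1% called, against 9.86% of all genes), with a median of -1.67, and in segment 3 the median was -0.83. Etv5, Dusp4 and Spry4 had the largest called differences in segment 2, at -6.96, -3.05 and -2.80.

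In segment 3 edgeR called none of the genes of these 4 lists. At an unadjusted p under 0.05 it held 3 of the coreceptors, 3 of the heparan sulfate enzymes, 3 of the adaptors and kinases and 6 of the feedback genes and targets, and DESeq2 called 1, 0, 0 and 6 of them.

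The segment 2 calls depended on single libraries. Of the feedback genes and targets, 6 fell without the control segment 2 library of batch 3017, 13 without that of batch 3097, 1 without the ligated segment 2 library of batch 3017 and 3 without that of batch 3097. When only the 4 libraries of segment 2 were fitted none of the 18 was called, and DESeq2 called 14 lower. All 10 named values of segment 2, which include Flrt1, Sdc1 and Gpc6 among the coreceptors, lost their call without either ligated segment 2 library.

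Without the control segment 2 library of batch 3017, 9 of those 10 lost their call as well, all but Sdc1. The log2 difference was then -5.77 for Etv5 (edgeR adjusted p = 0.063), -2.26 for Dusp4 (0.054), -1.78 for Spry4 (0.11) and -1.10 for Plcg1 (0.088). It was -3.41 for Gpc6 (0.064), -0.96 for Hs3st1 (0.069), 0.49 for Hs6st1 (0.11), 0.34 for Frs2 (0.082) and 1.67 for Flrt1 (0.30). Without the control segment 2 library of batch 3097, Flrt1 alone of the 10 lost its call (0.067). In segment 1, 12 of the 15 pathway values that the naming rule took held in every alternative.

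**Figure D5:**
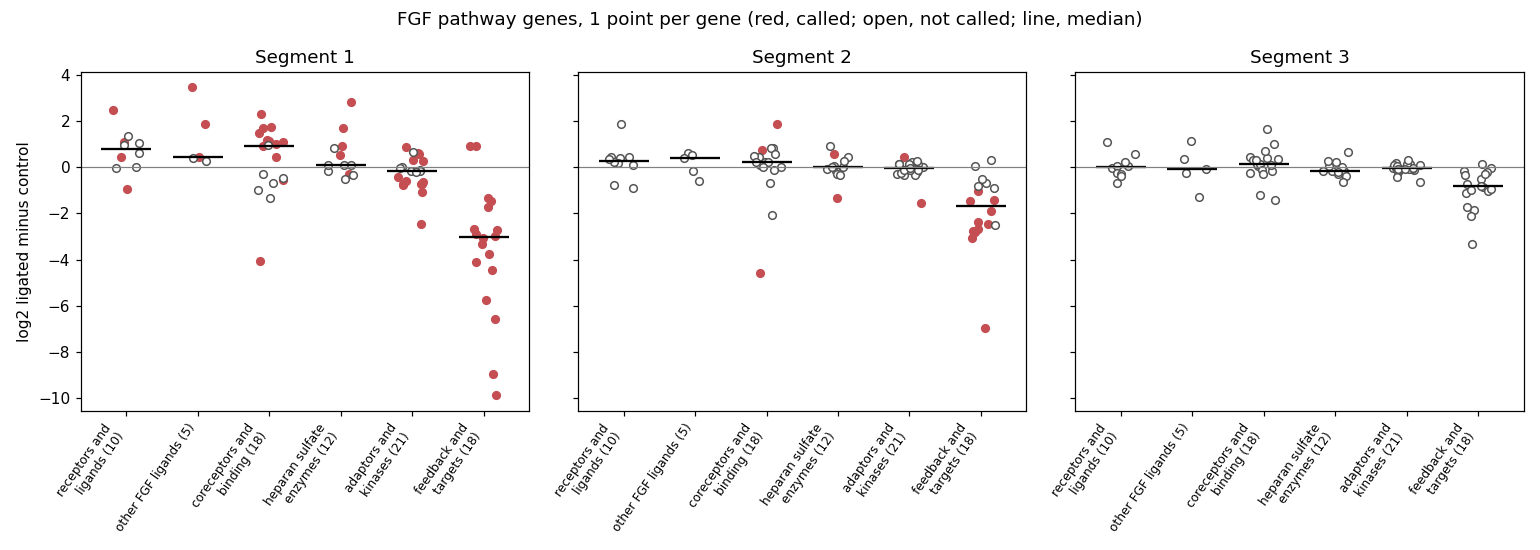
Log2 difference of ligated from control libraries for each tested gene of the FGF pathway lists (numbers of genes in parentheses) in segments 1, 2 and 3; red points were called by edgeR, open points were not, and lines are medians. Feedback genes and targets lie lowest, at a median of -3.02 in segment 1 and -1.67 in segment 2.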

How the data were processed

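Raw counts were deposited by the authors as whole numbers per gene, without normalization, in 1 table per sequencing batch. Per the submitters' processing notes, Trim Galore 0.6.0, cutadapt, FastQC and STAR 2.7.0e were used, with GRCm38 (mm10). The program that counted reads, how it treated strand, and which annotation release it used were not given in the sources used here. Every one of the 55536 identifiers matched GENCODE mouse release 21. Per the labels, libraries were directional, from 500 ng of RNA.

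Counts were analysed with edgeR 4.0.16 (limma 3.58.1, R 4.3.3): filterByExpr with a minimum count of 10, TMM, robust glmQLFit with group and batch over all 12 libraries, two-sided glmQLFTest, and Benjamini-Hochberg adjustment over 19213 genes at 0.05. Residual degrees of freedom were 5 and the common biological coefficient of variation was 0.153. The fit was tested on simulated data. DESeq2 1.42.0 was an alternative. The 12 comparisons were ligated against control per segment, segments against each other, and differences of the ligation effect. Within-batch log2 differences used CPM plus 0.5. Per-kilobase levels used the merged exon length. Precision is limited by 2 libraries a group. Floors cover counting error only, since reads carry no molecular identifiers.

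Columns carry a group and a batch; the labels' replicate numbers could not be tied to either batch. Batch paired the libraries by design: deviations of same-batch libraries from their group means correlated at 0.083 to 0.55, over 0.1 in 13 of 15 pairs of groups. No FGF gene had a called batch difference.

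The 10 genes and the lists were chosen with earlier results of these data known. Pathway genes were named by rule: per ligation comparison and list, the 3 largest called log2 differences reaching a mean of 1 CPM in at least 1 of the groups, and having the same direction in both batches. One gene that the rule took is not reported here. Genes of like pattern were the 3 with the highest Pearson r of log2 CPM (prior count 2), for the 4 FGF genes with the widest range of group means, among genes reaching a mean of 5 CPM in some group. Promoter windows came from RefSeq, 250 bases each. No entry was used for Fgfr1, and the Fgf1 window is not shown. Windows overlapping exons were not printed.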

Additional observations from a re-analysis of the deposited data

Results flagged for a closer look

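The effect of ligation on Fgf1 differed between segments: the log2 difference of ligated from control libraries was larger in segment 1 than in segment 2 by 0.90 and than in segment 3 by 1.05, by a test of the difference itself (edgeR interaction contrast). Fgf10 was singled out in the same way, with a larger log2 difference in segment 1 than in segment 2 by 2.15 and than in segment 3 by 2.85. These 4 differences share the control and ligated segment 1 libraries. Among all genes, 18.5% were called for segment 1 against segment 2 and 30.7% for segment 1 against segment 3. Against segment 2, the call held in 10 of 15 alternatives for Fgf1 and in 3 of 14 for Fgf10. Against segment 3, the Fgf1 and Fgf10 calls held in every alternative in which they were tested. Both genes were at their lowest in control segment 1.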

How the results depend on the processing

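Of the 20 calls among the 10 FGF genes, 9 held under every alternative in which they were tested. None reversed. Counts of called FGF genes moved as follows. With scaling by library totals, segment 2 ligation went from 0 to 1. Without a filter, the effect in segment 1 against 2 went from 2 to 1. With a minimum count of 50, which removed Fgfr4, Fgf7, Fgf9 and Fgf10, ligated segment 1 against 2 went from 1 to 0, against 3 from 2 to 1, and the effect in segment 1 against 2 and against 3 from 2 to 1. DESeq2 gave 1 for segment 2 ligation, 1 for control segment 2 against 3, and 1 for the effect in segment 1 against 2. With only the compared libraries, control segment 2 against 3 gave 1 and the effect in segment 1 against 2 gave 1. Without the replicate block (batch left out), ligated segment 1 against 3 gave 1 and the effect in segment 1 against 2 gave 0, and no other count moved by over 1.5 times.

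Leaving out 1 library at a time gave 2 to 4 calls for segment 1 ligation (2 without the control library of batch 3097), 0 to 3 for segment 2 ligation (3 without the control library of batch 3097), 1 to 4 for control segment 1 against 2 (1 without the control segment 1 library of batch 3097) and 0 to 2 for control segment 2 against 3 (2 without the control segment 2 library of batch 3097). It gave 0 for ligated segment 1 against 2, 0 to 1 for ligated segment 1 against 3, 0 to 3 for the effect in segment 1 against 2 and 0 to 2 for segment 2 against 3 (2 without the control segment 2 library of batch 3097). The cause of these shifts was not tested. A lone library was assumed to vary like the other groups. The 62 single-gene results followed include some that the main fit did not call. Over them, 583 alternative values kept the main fit's status, called or not called. A call was lost in 92 and gained in 23. Depth limits Fgfr4, Fgf7, Fgf9 and Fgf10, which held at most 75 counts in a library. Scaling by library totals moved the median of all genes in segment 1 from 0.03 to 0.24.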
